A study of Mus musculus with 8 samples.

Results

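The genes described here are the receptors of the epidermal growth factor family, Egfr, Erbb2, Erbb3 and Erbb4, and 6 of their ligands, Areg, Ereg, Hbegf, Tgfa, Btc and Nrg1. Their expression was followed in cells sorted from mouse hair follicles at rest, on 8 Affymetrix Mouse Genome 430 2.0 arrays. Members were chosen by gene name: every probe set that the platform annotation gives to 1 of these genes alone was used. This found 20 probe sets for 9 of the 10 genes, among 18193 genes and 45037 probe sets measured in all. Egfr had 7 probe sets, Tgfa had 3, and Erbb3, Hbegf and Btc had 2 each. Erbb2, Erbb4, Ereg and Nrg1 had 1 each. Areg, which encodes amphiregulin, had no probe set of its own in the annotation used here and was not analysed.

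Receptors of this family are tyrosine kinases that pair up when a ligand binds. Egfr binds amphiregulin, epiregulin, betacellulin, transforming growth factor alpha and heparin-binding EGF. Erbb3 and Erbb4 bind neuregulins, and Erbb4 also binds betacellulin, epiregulin and heparin-binding EGF. Erbb2 has no known soluble ligand and acts as a partner. The ligands are made as membrane proteins and are released by ADAM proteases under the control of iRhom proteins. Active receptors signal through adaptor proteins to the RAS-ERK and PI3K pathways, and the cell answers with feedback inhibitors. In skin the pathway is known for its part in epidermal growth and wound repair and in the shape and timing of the hair coat.

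The study compared wild-type (WT) mice with Runx1 iTG mice, which the labels describe as Tet-on transgenics for Runx1, a transcription factor of hair follicle stem cells. The labels do not name its driver. All 8 samples, WT included, came from mice with 1 day of doxycycline at 1 g per kg of food. The labels give the drug's purpose as turning down an H2BGFP reporter. From each genotype, cells carrying K15-GFP and a6-integrin were split by CD34, with CD34-positive cells labelled bulge and CD34-negative cells labelled hair germ. That gave 4 groups of 2 arrays, with mice at postnatal day 20, except replicate 2 of both transgenic groups at day 21. The labels call the samples biological replicates, and they do not give how many animals each held or whether both populations came from the same animals.

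Signals below are scaled to a common 75th percentile, and a probe set counted as above background on an array where it exceeded 31.1, the 95th percentile of 27 bacterial control probe sets. Between 69.0% and 77.0% of probe sets did so on each array. Runx1 itself read 489 to 904 on the WT arrays and 12107 to 19461 on the transgenic arrays, 4.53 higher on the log2 scale (SE 0.18, limma adjusted p = 3.89e-06). Its 6 probe sets disagreed: 2 were called higher in transgenics, and the other 4 had differences of -1.48 to -0.86 that did not pass. With the mean of all 6 in place of the brightest, the averaged difference was 0.35 (adjusted p = 0.752) and the bulge one 0.99 (0.689), so the call was lost. By sex-linked genes, every replicate 1 was male and every replicate 2 female: Xist, the RNA of the inactive X, read 30.2 to 72.5 in the first and 9973 to 11103 in the second. Sex is therefore balanced between groups and is part of the spread within each, and in the transgenics it cannot be told apart from the day of sampling. Replicates of a group correlated at a Spearman rho of 0.949 to 0.958 over probe sets.

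The CD34 gate was visible, with Cd34 at 4902 to 11208 in bulge and 1.52 to 53.2 in the other samples. The label "hair germ" was not borne out by its markers. Of 12 hair germ genes, 2 were higher in the CD34-negative samples than in bulge (Cux1 and Axin2) and 6 were lower, among them Lgr5 by -4.68, Gli1 by -4.18 and Hoxc13 by -3.70 on the log2 scale. The summed hair germ signal was 6417 to 10176 there against 17255 to 23028 in bulge. Lgr5, which is also on the bulge list, read 229 to 521 there and 7057 to 9956 in bulge. Much of the gap between the hair germ sums is therefore Lgr5. Of 7 sebocyte genes, which mark the oil gland, 6 were higher there, among them Pparg by 7.57 and Mc5r by 5.22, and their summed signal was 18502 to 34989 against 3818 to 4853. The call of Axin2 was kept only when WT labelled hair germ replicate 2 was the array left out (adjusted p up to 0.118 otherwise). That of Cdh3, lower there, was lost on leaving out either WT bulge array, WT labelled hair germ replicate 2, Runx1 iTG bulge replicate 2 or Runx1 iTG labelled hair germ replicate 1 (up to 0.106), and that of Lef1, lower there, was lost without Runx1 iTG bulge replicate 2 (0.0516). These samples are called CD34-negative cells below, and "labelled hair germ" keeps the study's name. No marker gene was called between genotypes.

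**Figure D1:**
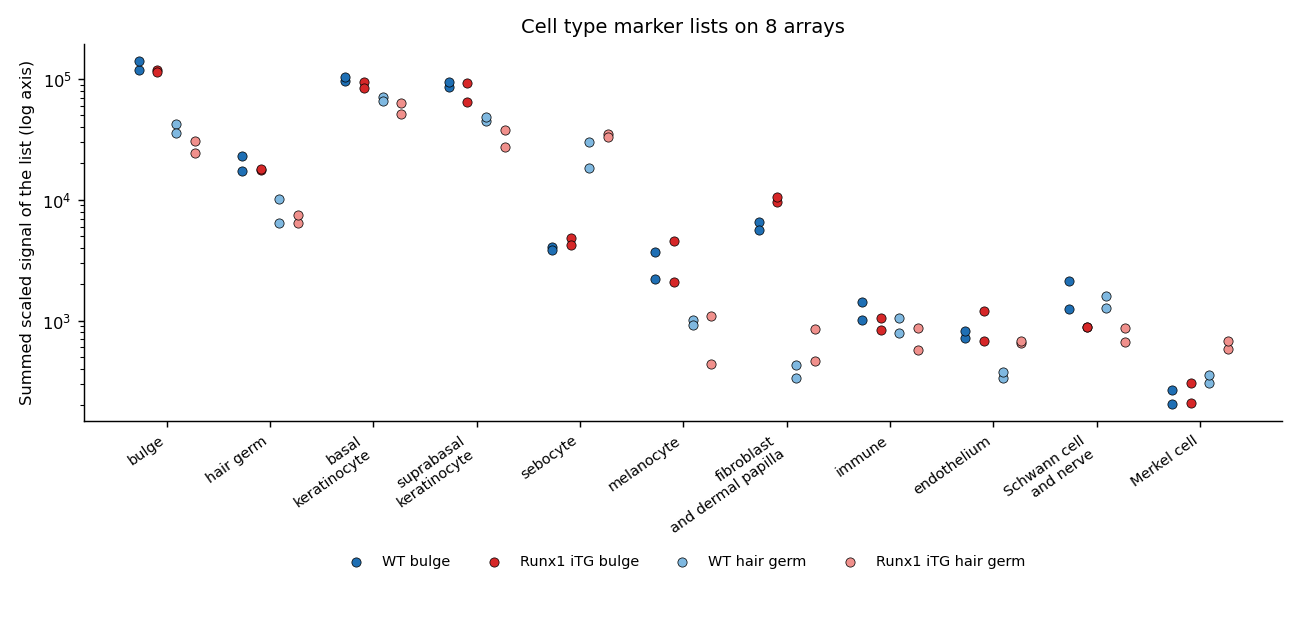
Summed scaled signal of the genes of 11 cell type marker lists (log axis) on each of the 8 arrays, with 1 point per array coloured by group. The bulge, hair germ and fibroblast lists are higher in both bulge groups, and the sebocyte list reads 18502 to 34989 in the labelled hair germ samples against 3818 to 4853 in bulge. Lgr5 is on both the bulge and the hair germ list.

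The first question is where in the sorted follicle cells these genes are expressed. Btc, which encodes betacellulin, was lower in the CD34-negative cells than in bulge, and it was the 1 measured member of 9 that passed the test over both genotypes. Ereg, which encodes epiregulin, differed by a similar amount and did not pass. The receptors Egfr, Erbb2 and Erbb3 read well above background on all 8 arrays of both populations. Differences are log2 values from 1 limma fit over all 8 arrays, with Benjamini-Hochberg adjustment over all genes and a call at an adjusted p under 0.05. The comparisons below share arrays, so their values are set side by side without being counted as separate support. In these bulk samples, fewer cells of a type and less RNA per cell cannot be told apart.

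**Figure D2:**
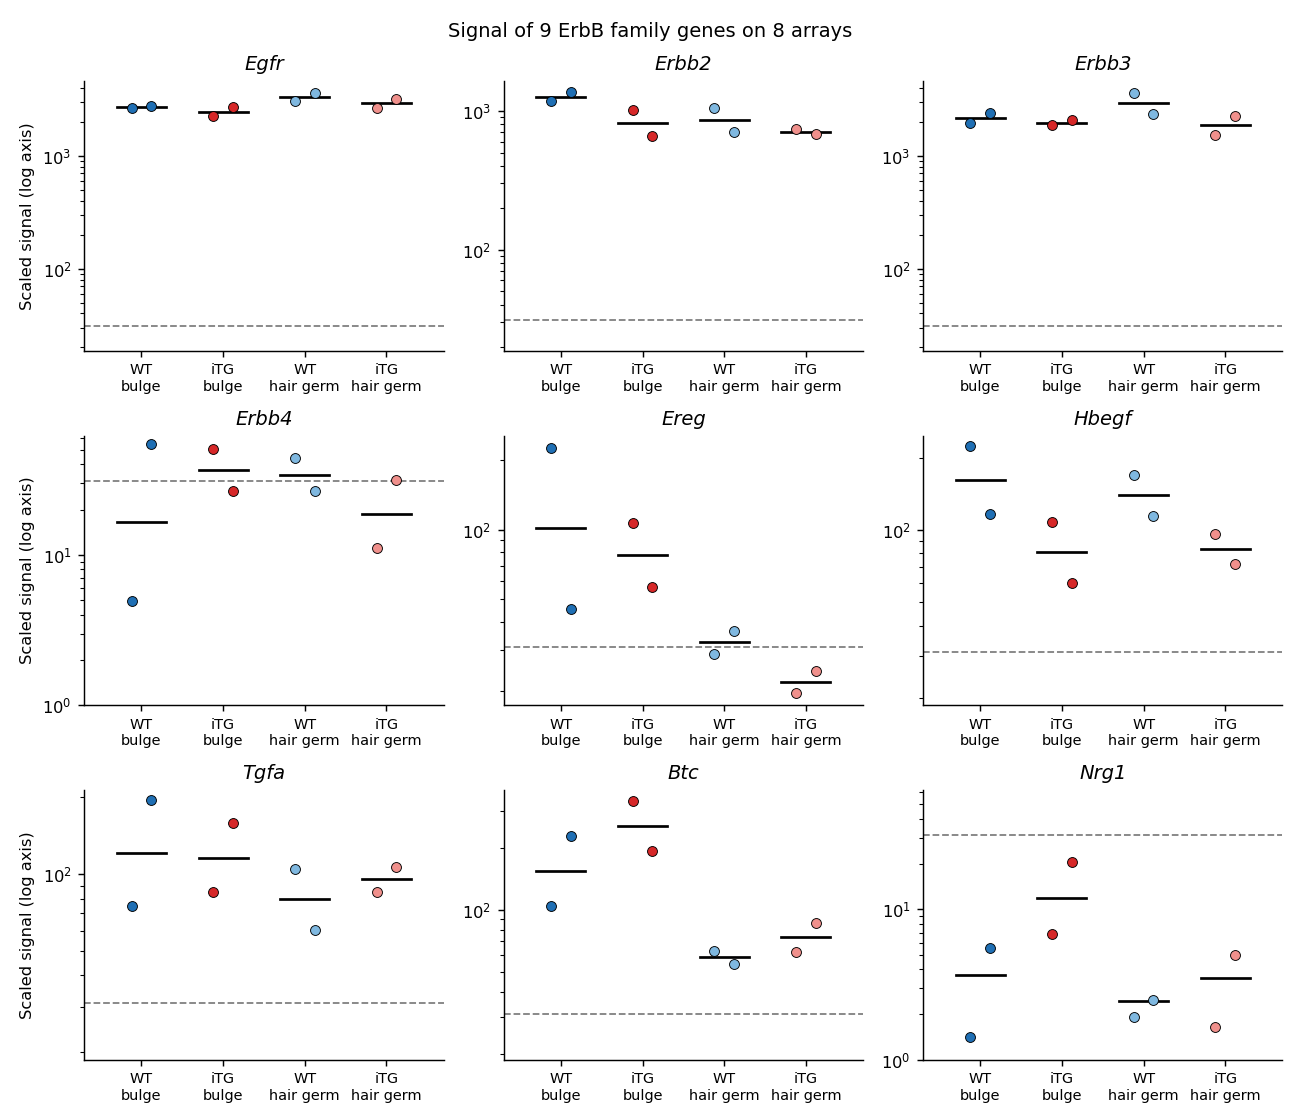
Scaled signal (log axis) of the 9 measured genes on each array, with 2 points per group, a bar at the group's geometric mean and a dashed line at the background limit of 31.1. Btc and Ereg lie higher in all 4 bulge arrays than in all 4 labelled hair germ arrays, and Nrg1 lies below the limit on all 8.

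Egfr is the receptor that most of the ligands share. Its brightest probe set read 2664 and 2760 in WT bulge, 3102 and 3639 in WT cells labelled hair germ, 2238 and 2713 in transgenic bulge, and 2654 and 3216 in transgenic cells labelled hair germ. All 8 values lay within 1.63-fold of each other, and the bulge and CD34-negative arrays overlapped. The averaged difference, CD34-negative minus bulge, was 0.28 (SE 0.16, 95% interval -0.07 to 0.62, adjusted p = 0.267). Over the 7 Egfr probe sets, which share 1 gene and are not replicates, the averaged difference ran from -0.26 to 0.51 and none was called.

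Erbb2 read 1177 and 1359 in WT bulge, 1044 and 708 in WT cells labelled hair germ, 1022 and 655 in transgenic bulge, and 735 and 677 in transgenic cells labelled hair germ. WT bulge held the highest pair, and the other 3 groups overlapped. Its averaged difference between populations was -0.39 (SE 0.22, interval -0.87 to 0.10, adjusted p = 0.270).

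Erbb3, a receptor with little kinase activity of its own, read 1980 and 2424 in WT bulge, 3641 and 2369 in WT cells labelled hair germ, 1872 and 2064 in transgenic bulge, and 1531 and 2274 in transgenic cells labelled hair germ. A single array, WT labelled hair germ replicate 1, stood above the rest. The averaged population difference was 0.17 (SE 0.20, adjusted p = 0.623). Erbb4 ranged from 4.92 to 54.8 and passed the background limit on 4 of 8 arrays, 1 in each group. Its interval for the averaged difference, -1.78 to 1.85, bounds little.

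Among the ligands, the brighter Btc probe set read 104 and 228 in WT bulge and 338 and 193 in transgenic bulge. In the CD34-negative cells it read 63.1 and 54.6 in WT and 62.2 and 86.2 in transgenics. All 4 bulge arrays lay above all 4 of the others, and all 8 lay above background. The averaged difference was -1.60 (SE 0.42, interval -2.53 to -0.67), 3.02-fold lower in the CD34-negative cells, with an adjusted p of 0.0248. It was -1.39 in WT (SE 0.59, adjusted p = 0.211) and -1.80 in transgenics (SE 0.59, adjusted p = 0.0897), so neither genotype passed alone. By group mean, transgenic bulge (256) and WT bulge (154) overlapped, as did the CD34-negative groups of transgenics (73.2) and WT (58.7).

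The Btc call rested on few arrays. It was lost without WT bulge replicate 2 (adjusted p = 0.106), WT labelled hair germ replicate 1 (0.0546) or 2 (0.0777), transgenic bulge replicate 1 (0.0884) or transgenic labelled hair germ replicate 1 (0.0817), while the difference stayed between -1.88 and -1.31. The second Btc probe set read 42.6, 215, 91.1 and 153 in bulge and 12.9, 73.4, 47.3 and 52.1 in the CD34-negative cells, with arrays that overlapped. Its difference was -1.44 (SE 0.70, adjusted p = 0.224 over all probe sets), in the same direction and not called.

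Ereg read 227 and 45.5 in WT bulge and 107 and 56.4 in transgenic bulge. It read 28.9 and 36.5 in WT and 19.6 and 24.4 in transgenic CD34-negative cells. All 4 bulge arrays lay above background and above the other 4, of which 1 passed the background limit. The averaged difference was -1.74 (SE 0.61, interval -3.09 to -0.38, adjusted p = 0.0772). In transgenics, where both CD34-negative arrays were below background, bulge was at least 2.50-fold higher by measured signal over the limit. Without WT bulge replicate 2, Ereg and not Btc was the gene called (-2.32, adjusted p = 0.0342).

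Hbegf read 224, 117, 108 and 60.3 in bulge and 170, 114, 96.1 and 72.5 in CD34-negative cells, in the order WT then transgenic. The populations overlapped, with a difference of -0.09 (SE 0.42, adjusted p = 0.915). Tgfa read 75, 195, 85.2 and 158 in bulge and 105, 60.1, 85.1 and 107 in CD34-negative cells in the same order, with a difference of -0.44 (SE 0.47, adjusted p = 0.581). Nrg1 lay below background on all 8 arrays (1.42 to 20.6), so no fold is given.

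Across the 9 genes, 6 differences were below 0 in the averaged comparison, with a median of -0.39. Over all 18193 genes the median was -0.09 and 55.1% lay below 0. The 1 member called is to be read against 18.3% of all genes called in that comparison. No member was called in WT alone, where 6.93% of genes were, or in transgenics alone, where 9.76% were. At an unadjusted limma p under 0.05 there was 1 member of 9 in each, against 3830 and 4188 of all 18193 genes. Arrays did not overlap between populations for 4 members in WT (52.0% of all genes), for 3 in transgenics (51.9%) and for 2 over all 8 arrays (22.4%). Nrg1, below background on all 8 arrays, is counted in the signs and median above and is 1 of the 3 in transgenics. Of the 20 probe sets, 1 was called in the averaged comparison, against 14.0% of all probe sets. In WT or in transgenics alone 0 were called, against 4.61% and 6.98%. At an unadjusted limma p under 0.05 there was 1 of 20 in each, against 8250 and 9068 of all 45037 probe sets.

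**Figure D3:**
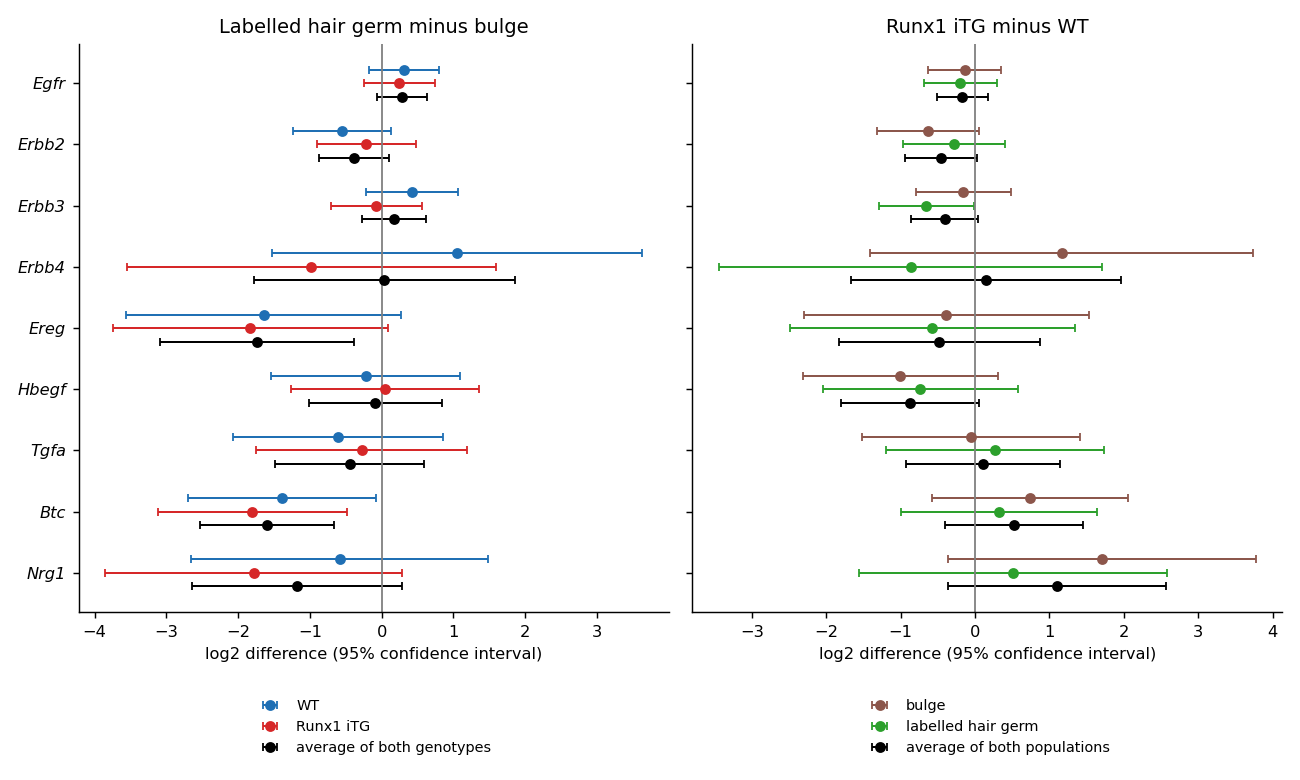
Log2 differences with 95% confidence intervals for the 9 measured genes, CD34-negative (labelled hair germ) minus bulge on the left and Runx1 iTG minus WT on the right, each in both strata and averaged. Btc on the left averages -1.60 with an interval of -2.53 to -0.67, and on the right the averaged interval of all 9 genes spans 0.

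Other signals moved with the Btc and Ereg differences. All 8 suprabasal keratinocyte genes were lower in the CD34-negative samples, with a sum of 64949 to 93693 in bulge and 27383 to 48465 elsewhere. Of 6 basal keratinocyte genes, 4 were lower, with sums of 84689 to 104934 and 51570 to 71428. The bulge list, which the CD34 gate bears on, was lower in 11 of 11 measured genes. Of 10 fibroblast and dermal papilla genes, 4 were lower in the CD34-negative samples, and their summed signal was 5622 to 10518 in bulge against 335 to 850, led by Col1a1 and Col1a2, while Lum and Dpt were below background on all arrays. Of 8 melanocyte genes, 2 were lower (Dct and Mitf), and only 1 lay above background on all 8 arrays. Their sum of 2105 to 4537 in bulge and 438 to 1095 elsewhere was mostly Mitf, at 1886 to 4180 and 374 to 868. Immune and endothelial lists had 1 gene lower each, of 10 and 8, with Ptprc and Cldn5 below background on all arrays. Of all 18193 genes, 1658 were called lower. The immune sums overlapped between populations, at 836 to 1426 in bulge and 573 to 1043 elsewhere. The endothelial sums were 683 to 1211 in bulge and 333 to 674 elsewhere. The part of these cells in the Btc and Ereg values was not tested. The 3 genes whose log2 signal followed Btc most closely over the 8 arrays, among 8865 genes brighter than the median, were Dlg5 (Pearson r = 0.979), Elmo3 (0.978) and Tasor (0.967). The points share arrays and 2 populations, so this is a description.

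The remaining family ligands were looked at beside the members. Nrg4, a neuregulin that binds Erbb4, was higher in the CD34-negative cells. It read 75.3 and 133 in WT bulge and 153 and 116 in transgenic bulge, against 435 and 1354 in WT and 1478 and 1770 in transgenic CD34-negative cells. The groups did not overlap. The averaged difference was 3.27 (SE 0.37, 9.65-fold, adjusted p = 0.000288), and it was called in all 16 alternative analyses run of it. It was 2.94 in WT, where the call was lost on leaving out either WT bulge array or WT labelled hair germ replicate 2 (adjusted p up to 0.0834), and 3.60 in transgenics (adjusted p = 0.00261). The sebocyte list given above was higher in the same 4 samples, and its part in the Nrg4 value was not tested.

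Of the other 4 ligands of that list, none was called between populations. Epgn (epigen) differed by -0.21 (SE 0.43, adjusted p = 0.801), Egf by -0.42 (SE 0.58, adjusted p = 0.690), Nrg2 by -0.61 (SE 0.38, adjusted p = 0.320) and Nrg3 by 0.30 (SE 0.84, adjusted p = 0.857). In the RefSeq gene table for GRCm38.p6, Epgn, Ereg, Areg and Btc are successive protein-coding genes on chromosome 5. Of these neighbours, Btc and Ereg lay higher on all 4 bulge arrays, while Epgn overlapped, with 63.9 to 158 in bulge and 63.4 to 138 in CD34-negative cells.

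Because Runx1 was the factor raised, the 250 bases before the start were searched for its letters in Egfr, Erbb2, Erbb4, Areg, Tgfa, Btc and Nrg4. Ereg, Hbegf, Erbb3, Nrg1 and the other 4 ligands were not searched. The RUNX consensus was taken as TGTGGT or TGCGGT and the shorter core as TGTGG, which lies inside the first of these, each on both strands. Of 32851 RefSeq promoter windows of this length (GRCm38.p6), 18.6% held the consensus and 49.3% the core. Btc, the member called, and Nrg4, the ligand with the opposite difference, are shown 5′ to 3′ on their own strand, with capitals marking consensus and core matches. Btc lies at chr5:91402995-91403244 and Nrg4 at chr9:55283626-55283875, both on the minus strand.
Btc: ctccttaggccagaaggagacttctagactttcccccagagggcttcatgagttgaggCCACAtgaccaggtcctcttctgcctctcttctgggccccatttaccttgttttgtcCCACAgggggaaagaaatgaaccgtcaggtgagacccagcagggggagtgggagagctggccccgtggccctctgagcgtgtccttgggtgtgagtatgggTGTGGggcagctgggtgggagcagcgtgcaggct
Nrg4: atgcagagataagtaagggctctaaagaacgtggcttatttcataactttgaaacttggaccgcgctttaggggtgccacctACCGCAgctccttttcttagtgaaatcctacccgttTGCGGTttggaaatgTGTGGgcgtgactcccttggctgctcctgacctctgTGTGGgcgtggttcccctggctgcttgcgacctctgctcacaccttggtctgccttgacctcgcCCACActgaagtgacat
The Btc window held 3 core matches and 0 of the consensus. The Nrg4 window held 3 core and 2 consensus matches. The windows of Egfr, Erbb2, Erbb4, Areg and Tgfa held 0 of either. A match is a run of letters and not a bound site. Neither Btc nor Nrg4 was called between genotypes, with averaged differences of 0.53 (SE 0.42, adjusted p = 0.813) and 0.75 (SE 0.37, adjusted p = 0.677).

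The second question is whether 1 day of the transgene went with another level of these genes. No measured member was called between Runx1 iTG and WT in bulge, in the CD34-negative cells, on average or in the interaction, by limma at an adjusted p under 0.05. At an unadjusted limma p under 0.05 there were 0, 1, 0 and 0 members, against 1084, 1233, 1456 and 839 of all 18193 genes. The background of calls is as low as that of the members, with 0.0220%, 0.0275%, 0.0495% and 0% of all genes called in the 4 comparisons. For probe sets, with 0 of 20 called in each, it was 0.00444%, 0.00888%, 0.0377% and 0%. With a median SE of 0.52 for a difference within 1 population and 0.36 for the average, these data could not resolve small changes. If both populations came from the same animals, the SE of the average may be too small.

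Egfr differed by -0.17 on average between genotypes (SE 0.16, interval -0.52 to 0.18, adjusted p = 0.830). Its 7 probe sets all had averaged differences below 0, from -0.74 to -0.17, and 4 of them had an unadjusted p under 0.05, with a smallest adjusted p of 0.548. In bulge 7 of 7 were below 0 and in CD34-negative cells 6 of 7. The one with the smallest p read 1853 and 1975 in WT bulge against 1024 and 1742 in transgenic bulge, and 2248 and 2154 against 1427 and 1506 in CD34-negative cells. Its arrays did not overlap between genotypes (-0.55, SE 0.19), while those of the brightest probe set did. Probe sets of 1 gene were read on the same arrays from the same cells, so 7 of 7 does not count as 7 separate observations on Egfr. Of all 45037 probe sets, 51.5% were below 0 in this comparison, and 3362 had an unadjusted limma p under 0.05.

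**Figure D4:**
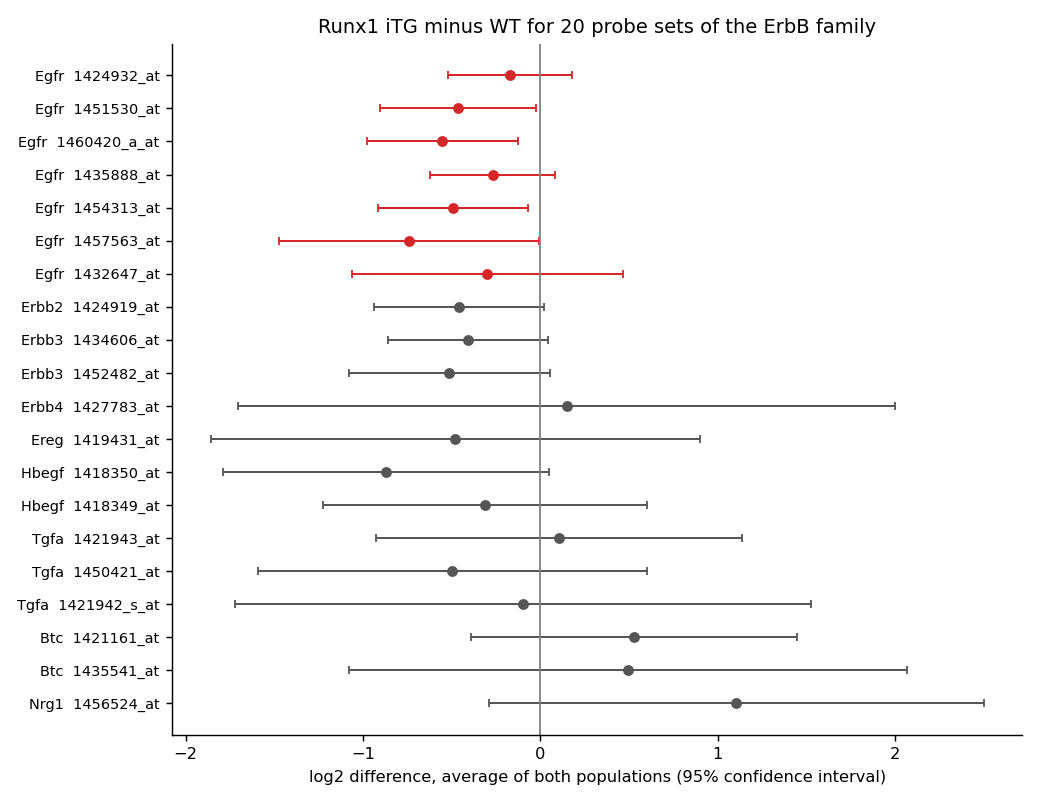
Log2 difference, Runx1 iTG minus WT averaged over both populations, with its 95% confidence interval for each of the 20 probe sets, Egfr in red. The 7 Egfr probe sets lie between -0.74 and -0.17, and no probe set of the 20 was called.

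Erbb2 differed by -0.46 on average between genotypes (SE 0.22, interval -0.94 to 0.03, adjusted p = 0.656). In bulge its arrays did not overlap between genotypes (1177 and 1359 against 1022 and 655). Erbb3 had the smallest p of the members in the CD34-negative cells, at -0.65 (SE 0.28, interval -1.29 to -0.02, unadjusted p = 0.0446, adjusted p = 0.718), with 3641 and 2369 in WT above 1531 and 2274 in transgenics. Its second probe set read 1300 and 815 in WT against 396 and 759 there (-0.91, SE 0.36, adjusted p = 0.740). In bulge the Erbb3 difference was -0.16 (SE 0.28), and the interaction did not pass (-0.50, SE 0.40, adjusted p = 1.00).

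Hbegf was the member whose WT and transgenic arrays did not overlap in either population or over all 8. The 4 WT arrays read 114 to 224 and the 4 transgenic arrays 60.3 to 108. The averaged difference was -0.87 (SE 0.42, interval -1.80 to 0.06, adjusted p = 0.661), and over all genes 2.57% had arrays that did not overlap in this comparison. Its second probe set did overlap, at -0.31 (SE 0.41, adjusted p = 0.902). Arrays did not overlap for 3 members in bulge (34.0% of all genes) and for 3 in CD34-negative cells (36.0%). Those in bulge include Nrg1, which lay below background in both genotypes.

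The averaged transgene difference was -0.48 for Ereg (SE 0.61), 0.10 for Tgfa (SE 0.47) and 0.15 for Erbb4 (SE 0.82), with adjusted p of 0.889, 0.976 and 0.980. Nrg1 stayed below background in both genotypes. Over the 9 genes, Nrg1 included, the median was -0.17, with 5 below 0, against a median of 0.03 over all genes.

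The pathway around the receptors was read from 6 lists of 88 genes, of which 79 were measured. In the averaged comparison of populations, 10 were higher and 8 lower in CD34-negative cells, 22.8% of those measured against the 18.3% of all genes given above. The lists' median difference was -0.07 and that of all genes -0.09. In WT alone 4 were higher and 4 lower (10.1%, against 6.93% of all genes), and in transgenics 5 and 4 (11.4%, against 9.76%). Values below are for the averaged comparison, and 7 of the genes kept their call in all 16 alternatives run: Nrg4, Adam15, Lrig1, Eps8, Dusp4, Phlda1 and Myc. The bulge and sebocyte lists also differed between these samples, and the part of cell type in the pathway values was not tested.

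Of 12 measured genes of ligand release, 1 was higher and 1 lower. Adam15, a membrane protease of the ADAM family, was lower by -1.09 (SE 0.16, adjusted p = 0.00140). Rhbdf2, an iRhom protein that brings the ligand-releasing protease ADAM17 to the cell surface, was higher by 1.08 (SE 0.25, adjusted p = 0.0157). Its call was lost without WT bulge replicate 2, WT labelled hair germ replicate 1, transgenic bulge replicate 1 or transgenic labelled hair germ replicate 2 (adjusted p up to 0.0672).

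Of 16 receptor inhibitors, 2 were higher and 1 lower. Lrig1, a membrane protein that lowers the amount of ErbB receptors, read 3309, 3139, 3268 and 3904 in bulge and 11042, 8821, 6400 and 8576 in CD34-negative cells. The groups did not overlap, and the difference was 1.33 (SE 0.16, 2.52-fold, adjusted p = 0.000420). Ptpn1, a tyrosine phosphatase, was higher by 0.85 (SE 0.19, adjusted p = 0.0107). Lrig3, of the same family as Lrig1, was lower by -0.64 (SE 0.19, adjusted p = 0.0387), a call kept only when transgenic bulge replicate 1 was the array left out, with adjusted p up to 0.127 otherwise.

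Of 14 genes in the adaptor list, 3 were called and all 3 were lower, against 18.3% of all genes called in either direction. Eps8, a substrate of Egfr that acts on actin, read 702, 617, 1029 and 601 in bulge and 241, 221, 192 and 218 in CD34-negative cells, a difference of -1.73 (SE 0.25, adjusted p = 0.00115). Src, a tyrosine kinase, was lower by -0.99 (SE 0.24, adjusted p = 0.0185). That call was lost without WT bulge replicate 2, WT labelled hair germ replicate 1, transgenic bulge replicate 1 or transgenic labelled hair germ replicate 1 (adjusted p up to 0.0886). Grb10 was lower by -1.71 (SE 0.47, adjusted p = 0.0309), a call kept only when transgenic bulge replicate 1 was the array left out (up to 0.113 otherwise).

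Of 13 measured genes of the RAS, ERK and PI3K cascades, 1 was higher and 1 lower. Ksr1, a scaffold of the ERK cascade, was higher by 1.25 (SE 0.33, adjusted p = 0.0270), kept in 1 of 8 analyses with an array left out, that without WT bulge replicate 2 (up to 0.104 otherwise). Braf, a kinase of the same cascade, was lower by -0.64 (SE 0.18, adjusted p = 0.0306), kept in 2 of 8, those without WT labelled hair germ replicate 1 or transgenic bulge replicate 1 (up to 0.115 otherwise).

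The list of ERK feedback genes and targets held the lowest and the highest values. Of 19 measured, 5 were higher and 2 lower. Phlda1, a gene induced by growth factor signalling, read 5289, 3823, 3598 and 4269 in bulge and 347, 706, 171 and 268 in CD34-negative cells. Its difference was -3.69 (SE 0.26, 12.9-fold, adjusted p = 2.03e-05). Dusp4, a phosphatase that turns off ERK in the nucleus, went the other way, with 13.8, 52.6, 54.0 and 69.5 in bulge against 309, 744, 1008 and 942. Its difference was 4.07 (SE 0.48, 16.8-fold, adjusted p = 0.000328). Myc was higher by 0.93 (SE 0.16, adjusted p = 0.00300).

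The other calls of that list were less stable. Dusp5, another ERK phosphatase, was higher by 1.40 (SE 0.33, adjusted p = 0.0147), lost on leaving out either WT bulge array, WT labelled hair germ replicate 1 or transgenic labelled hair germ replicate 1 (up to 0.0647). Spred2, an inhibitor of RAS signalling, was higher by 0.75 (SE 0.19, adjusted p = 0.0223), lost without WT bulge replicate 2, WT labelled hair germ replicate 2, transgenic bulge replicate 1 or transgenic labelled hair germ replicate 2 (up to 0.0948). Spry4, of the Sprouty family of feedback inhibitors, was higher by 1.76 (SE 0.53, adjusted p = 0.0449), kept only when WT labelled hair germ replicate 1 was the array left out (up to 0.169 otherwise). Ier3, an immediate early response gene, was lower by -1.18 (SE 0.35, adjusted p = 0.0440), kept only without WT labelled hair germ replicate 1 or transgenic bulge replicate 1 (up to 0.167 otherwise). Spry4 and Ier3 were outside the naming rule and were chosen after their values were seen. Spry1, a feedback inhibitor of receptor tyrosine kinases, was lower in WT alone (-1.54, SE 0.39, adjusted p = 0.0456) and did not pass on average (-0.80, adjusted p = 0.0788). Its WT call was lost on leaving out any of the 4 WT arrays or either transgenic labelled hair germ array (up to 0.227).

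**Figure D5:**
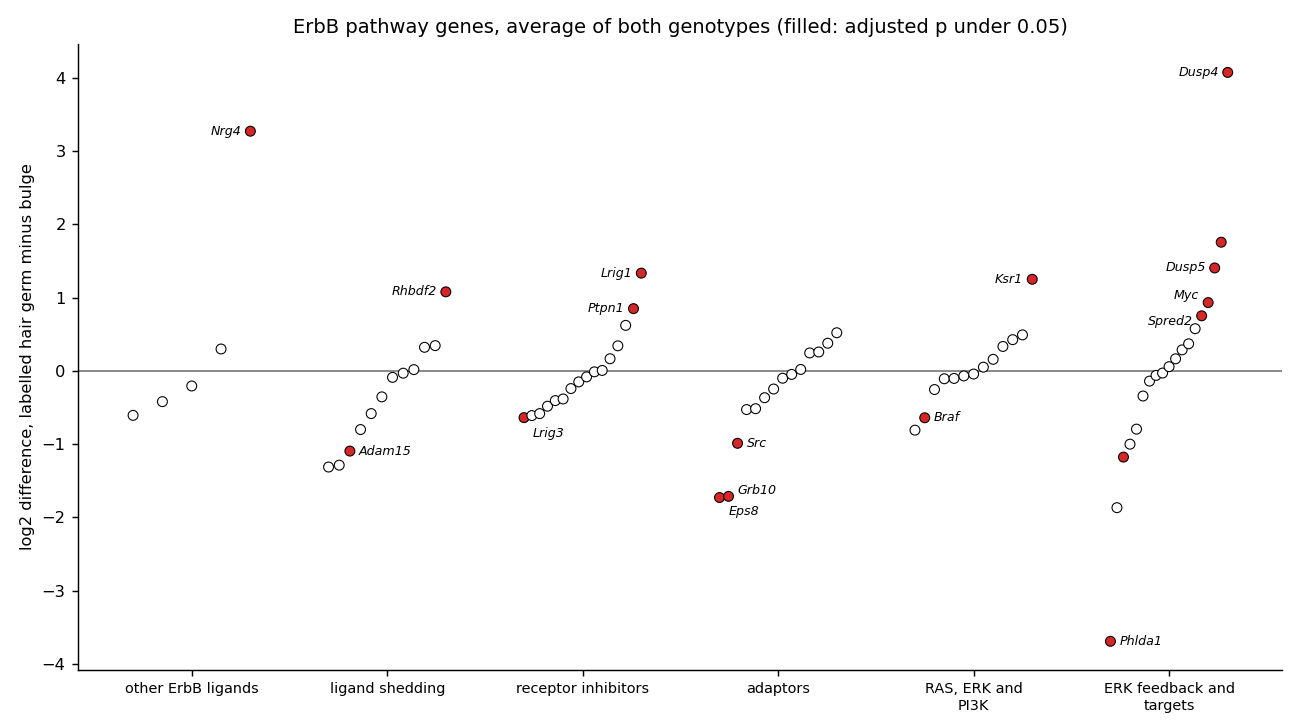
Log2 difference between CD34-negative (labelled hair germ) and bulge cells, averaged over genotypes, for the measured genes of 6 ErbB pathway lists, 1 point per gene and red where the adjusted p was under 0.05. Dusp4 at 4.07 and Phlda1 at -3.69 are the ends of the range, and called genes lie on both sides of 0.

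None of the 79 pathway genes was called between genotypes in bulge, in CD34-negative cells, on average or in the interaction. By the same limma fits, 3, 6, 8 and 4 of them had an unadjusted p under 0.05. Of all 18193 genes, 1084, 1233, 1456 and 839 did.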

How the data were processed

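RNA of 8 sorted samples was measured on 8 arrays. Per the labels' protocols, 5 ng of total RNA was amplified with the NuGEN Ovation Pico system and biotin-labelled with the Encore module, and such amplification can add scatter to dim transcripts. What was deposited is each probe set's intensity as the authors computed it, on a linear scale. Its trimmed mean (2% left out at each end), averaged over the 8 arrays, was 500. No source used here names the program. The 64 control probe sets were removed from 45101, arrays were brought to the same 75th percentile, the 3.48% of values under 2.42 were set to that floor, and values were then log2-transformed. In the platform annotation, 34945 probe sets had 1 gene symbol, 932 had several and 9160 had none. For a gene with several, as 9010 had, the probe set with the highest mean stood for it. One limma 3.58.1 model (R 4.3.3) with a mean per group and an intensity trend was fitted to all 8 arrays (residual degrees of freedom 4), with 7 contrasts. The script was tested on simulated data. Precision is limited by the 2 arrays per group.

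Where every array of the dimmer group was below background, a fold is the brighter group's mean over 31.1 and reads "at least". Of each pathway list, the genes called in any contrast are named, at most 6 by unadjusted p. The members and lists were chosen with earlier results of these data known. Same-numbered replicates of different groups shared sex, and those of the same genotype also shared the day. Their deviations from the group means correlated at -0.03 to 0.08, and the number was not taken to pair samples. That correlation cannot exclude that both populations came from the same animals. If they did, the averaged comparison of genotypes treats paired arrays as independent. Alternatives were another scaling, an offset of 16, the mean of a gene's probe sets, no trend, the 40% dimmest left out, only the groups compared, a replicate block, day 20 arrays only, and each array left out in turn.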

Additional observations from a re-analysis of the deposited data

How the results depend on the processing

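With 2 arrays per group, the Btc call depended on the processing. The 1 member called between populations on average became 0 with quantile normalization, the mean of a gene's probe sets or day 20 arrays only (Btc adjusted p = 0.0582, 0.0533 and 0.0762), and 0 to 1 with an array left out. Its difference stayed between -1.92 and -1.29. The 1 member probe set called became 0 with quantile normalization, no intensity trend or day 20 arrays only (0.0671, 0.0526 and 0.105), and 0 to 1 with an array left out. With the replicate number as a block, which here is also sex, 1 member was called (Btc, adjusted p = 0.0314). The block was not taken as a pairing and changed no other count of members called. Counts in all other comparisons of the members stayed at 0. Of 63 differences of members, 39 kept their sign in every alternative run, and 24 did not, none of them called. Runx1 in the CD34-negative cells turned to -0.29 with the mean of its 6 probe sets, of which 4 had averaged differences below 0. Erbb4, Nrg1 and, in CD34-negative cells, Ereg are limited by signal near or below background.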

Other observations

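A pair of genes that answer ErbB signalling had the smallest p of their lists in the averaged comparison of genotypes without passing the test. They were chosen after their values were seen. The rest of the lists was split: of 19 measured ERK feedback genes and targets, 9 were above 0 and 10 below, with a median of -0.02. Of 16 receptor inhibitors, 10 were above 0 and 6 below, with a median of 0.04. Errfi1, which encodes MIG6, a direct inhibitor of Egfr kinase, read 626 and 596 in WT bulge and 1261 and 2483 in transgenic bulge. In CD34-negative cells it read 1131 and 840 in WT and 1283 and 2467 in transgenics. All 4 transgenic arrays lay above all 4 WT arrays, which 2.57% of all genes showed in either direction. The averaged difference was 1.20 (SE 0.28, limma unadjusted p = 0.00146, adjusted p = 0.234).

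Dusp6, an ERK phosphatase and feedback gene, read 256 and 213 in WT bulge, 197 and 299 in WT CD34-negative cells, 591 and 1338 in transgenic bulge, and 471 and 1309 in transgenic CD34-negative cells. The groups did not overlap. The averaged difference was 1.81 (SE 0.38, limma unadjusted p = 0.000753, adjusted p = 0.190, and 0.0878 to 0.564 over 16 alternatives). For both genes the higher pair of transgenic arrays was replicate 2, which is female and day 21. With day 20 arrays only, the differences were 0.72 for Errfi1 and 1.15 for Dusp6 (adjusted p = 0.487 and 0.451).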
